A study of Homo sapiens with 12 samples.

Results

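The step from 2.5 to 5 µM of the small molecule 18E was followed across genes in HCC827, an established human non-small cell lung cancer line that carries an activating EGFR deletion. A gene was a member of the step if its line in the expression table was complete and its level was at least 1 FPKM (fragments of a gene divided by its transcript length and by the size of the library) at 2.5 µM or at 5 µM. This held for 11715 of 16760 complete genes. Members just inside the limit had 1.0 FPKM in the higher library (12 genes, among them CCDC28B with 1.0 FPKM at 2.5 µM and 0.54 at 5 µM), and genes just outside had 0.99 (17 genes, among them ASGR1 with 0.22 and 0.99 FPKM). Of the members, 417 passed only through the 5 µM library and 386 only through the 2.5 µM library, so these had to differ in one direction.

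The study treated HCC827 and NCI-H1975, a second established lung cancer line with EGFR mutations, with DMSO, 2.5 µM 18E or 5 µM 18E and sequenced RNA. The labels give 24 h for the 18E samples and no time for DMSO. Each line and treatment had 1 library (6 libraries), and no label speaks of repeated cultures. The siRNA libraries of the study were not used here. Every difference below is therefore described by its size alone, with no replicate error and no test, and in lysates of whole cultures fewer cells with an RNA and less of that RNA per cell cannot be told apart.

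The study concerns LIC1, the protein of the gene DYNC1LI1, and autophagy. DYNC1LI1 encodes a light intermediate chain of cytoplasmic dynein, the motor that carries cargo towards the minus ends of microtubules and moves autophagosomes towards lysosomes. Cells with damaged or unfolded proteins switch on sets of genes under separate regulators. HSF1 drives cytosolic chaperones, ATF4 drives amino acid supply and, when stress lasts, the factors ATF3 and DDIT3, and sensors in the endoplasmic reticulum drive chaperones of that compartment. Immediate early genes, which need no new protein to be transcribed, answer many of the same insults.

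The step is the value of log2(FPKM + 1) at 5 µM minus that at 2.5 µM. A gene is called higher or lower where the step is at least 1 in size, a 2-fold difference in FPKM + 1. The first change is the same difference for 2.5 µM against DMSO. It shares the 2.5 µM library with the step, so an error in that library enters both with opposite sign. Depth is unknown, since FPKM carry no counts. FPKM summed to 486409.2, 500873.3 and 514263.2 in HCC827 with DMSO, 2.5 and 5 µM, and the number of genes listed at 0 went from 1395 to 1082 and 534. The part of that difference in the values of low genes was not tested. All 8 markers of a lung epithelial line (EPCAM, 4 keratins, CDH1, NKX2-1 and NAPSA) were at 1 FPKM or more and summed to 8641.77, 9529.26 and 6585.96 FPKM. Of the markers of other cells, 0 of 7 endothelial genes, 1 of 6 fibroblast genes (COL1A1, 1.12 FPKM at 5 µM) and 2 of 6 blood genes reached 1 FPKM in HCC827. The blood genes were CD14 and the lysosomal protein CD68, which was at 107.92, 228.54 and 171.31 FPKM.

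At 5 µM, 726 members (6.2%) were higher and 556 (4.75%) were lower than at 2.5 µM. The counts of each gene list below are to be read beside these shares. The first change had been smaller: 153 members (1.31%) were higher and 56 (0.478%) lower at 2.5 µM than with DMSO. The SD of the step across genes was 0.68, against 0.35 for the first change. The median step was -0.13, and the range ran from -2.53 to 4.96. Large steps were mostly upward, with 147 members higher and 14 lower by at least 2. On this scale a gene low at 2.5 µM has little room to fall, while a rise has no such limit. The part of this in the balance was not tested. The balance of the calls depends on how the values are scaled and transformed. Higher genes were 56.6% of all calls with the values as deposited and 67.9% (857 higher, 406 lower) when each library was centred on its median. Other settings gave a more even balance. The share was 51.1% (979 higher, 938 lower) with a pseudocount of 0.1 and 52.1% (692 higher, 635 lower) with equal FPKM totals. Of the 726 higher genes, 168 were under 1 FPKM at 2.5 µM, and of the 556 lower genes, 43 were under 1 FPKM at 5 µM.

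**Figure D1:**
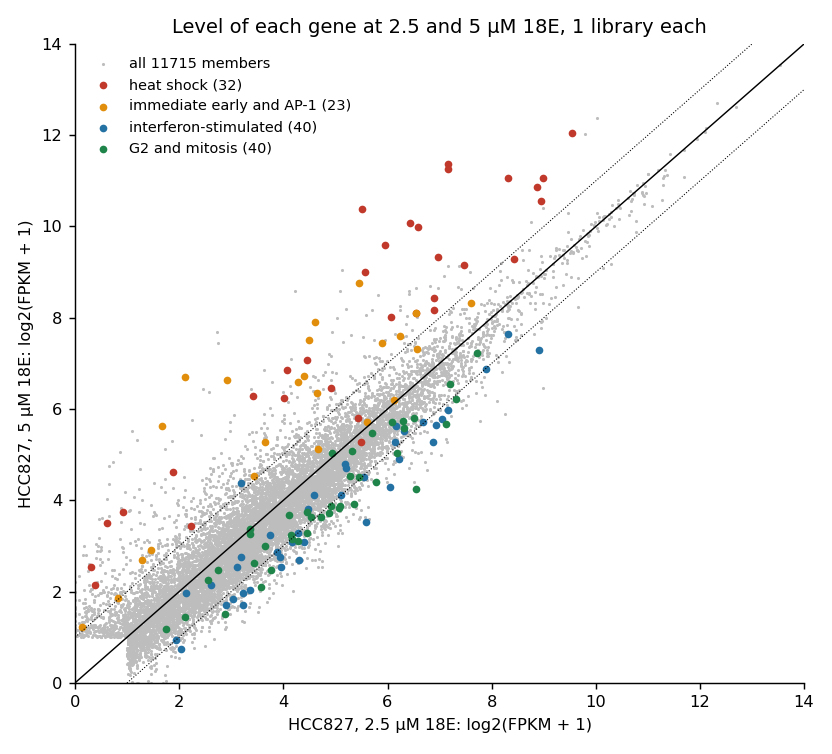
Level of each of the 11715 members in HCC827 at 2.5 µM (x axis) and at 5 µM (y axis), as log2(FPKM + 1), 1 library each, with 4 gene lists coloured; the solid line marks equal levels and the dotted lines a step of 1 in size. Of 32 heat shock genes 29 lie above the upper dotted line, and of 40 interferon-stimulated genes 24 lie below the lower one.

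Members with a first change under 0.5 in size are said to start at 5 µM. These were 547 of the 726 higher genes (75.3%) and 426 of the 556 lower genes (76.6%), against 88.9% of all members with a first change that small. With a limit of 0.25 they were 349 and 257, against 63.6% of all members. Genes that deepen had a first change of at least 0.5 in the same direction as the step. They were 157 of the higher genes (21.6%), with a median first change of 0.85 and a median step of 1.96, and 43 of the lower genes (7.73%). Genes that reverse had a first change of at least 0.5 in the opposite direction. Only 22 of the higher genes (3.03%) reversed, 20 of them to a level above DMSO, while 87 of the lower genes (15.6%) had been higher at 2.5 µM, and 84 of these ended below DMSO. These shares depend on the limit of 0.5, and the part of the shared 2.5 µM library in them was not tested.

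**Figure D2:**
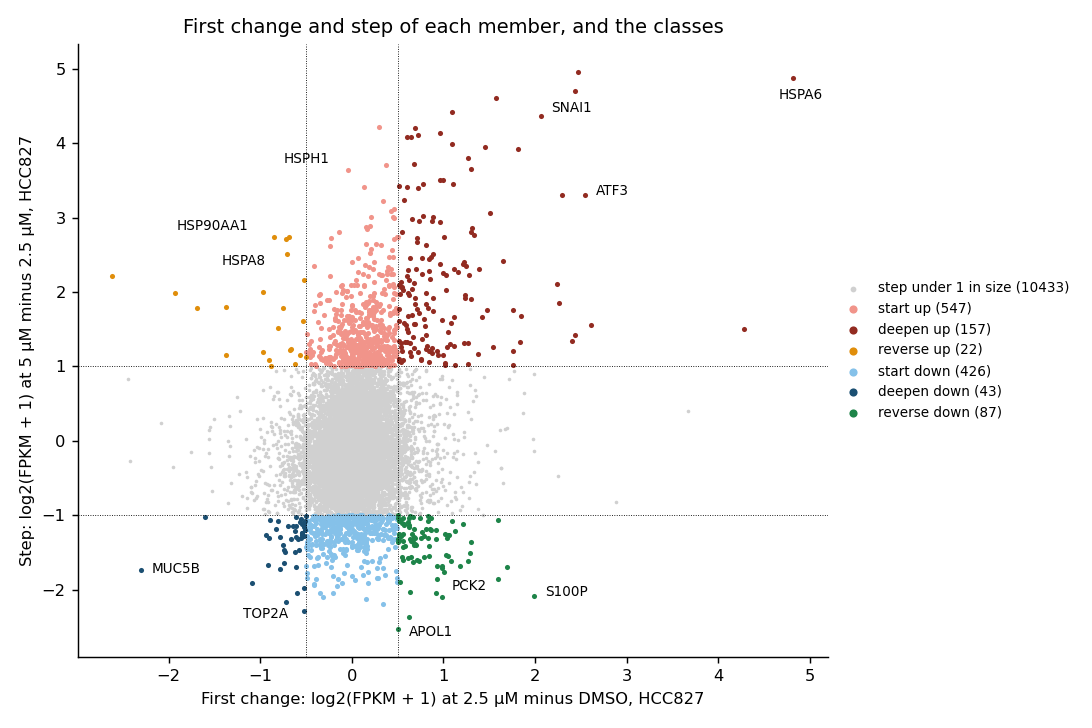
First change (x axis, 2.5 µM minus DMSO) and step (y axis, 5 µM minus 2.5 µM) of each member in HCC827, both in log2(FPKM + 1), with colours for the classes and their sizes in the legend; dotted lines mark first changes of 0.5 and steps of 1 in size. Starting genes fill the middle columns, 157 genes deepen at the upper right, and 87 genes at the lower right were higher at 2.5 µM and lower at 5 µM.

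Cytosolic chaperones of the heat shock response had the highest median step of the 39 gene lists. HSF1, the factor that drives them, had no step past 1 itself: it was at 41.5 FPKM in DMSO, 43.79 at 2.5 µM and 38.04 at 5 µM. Of 32 listed heat shock genes, all members, 29 were higher by at least 1 and 0 lower, and the median step was 2.30 against -0.13 over all members. The list summed to 5544.3 FPKM in the DMSO library, 4365.8 FPKM at the lower dose and 25294.5 FPKM at the higher one, which is 1.14%, 0.872% and 4.92% of the library totals. FPKM are scaled to each library, and the part of this larger share in the values of other genes was not tested. Of the 29, 19 started at 5 µM, 7 deepened and 3 reversed. In 4 of the 32 (HSPA1L, CRYAB, DNAJA4 and HSPA2) membership came only through the 5 µM library.

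The HSP70 family, whose members bind unfolded stretches of protein and release them with ATP, held the largest steps. HSPA6, a strictly inducible HSP70 on chr1:161524540-161526910 (GRCh38, plus strand, a gene of 1 exon), was at 0.6 FPKM in DMSO, 44.29 at 2.5 µM and 1337.1 at 5 µM. It was higher at each dose than before, and its step was 4.88. HSPA1A, the main inducible HSP70, was at 115.38, 142.48 and 2663.91 FPKM, a step of 4.22. Its near-identical copy HSPA1B was at 93.44, 142.91 and 2434.29 FPKM (4.08), and reads may have been shared between the pair. HSPA8, the constitutive HSP70, was at 1212.27 FPKM in DMSO, 740.69 at 2.5 µM and 4218.2 at 5 µM, so it was lower than DMSO at the lower dose and higher at the upper one.

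HSP90 genes and other helpers were higher too. HSP90AA1, the inducible cytosolic HSP90, had the same reversal as HSPA8, at 572.34, 317.22 and 2127.84 FPKM, and HSPA4L, an HSP110-type exchange factor, was the third to reverse, at 4.92, 2.69 and 23.65 FPKM. HSPH1, which exchanges nucleotide on HSP70, was at 62.63 and 61.07 FPKM up to 2.5 µM and at 774.25 at 5 µM. DNAJB1, an HSP40 that delivers clients to HSP70, was at 86.25, 94.45 and 1020.86 FPKM. Both were level up to 2.5 µM and over 3 log2 units higher at 5 µM. BAG3, which links HSP70 to autophagy of misfolded protein, was at 32.12, 46.22 and 509.15 FPKM. ZFAND2A, a stress-induced proteasome adaptor, was at 34.13, 85.31 and 1083.48 FPKM. The small heat shock protein HSPB8, a partner of BAG3, was at 5.67, 15.86 and 114.22 FPKM. Of the 3 members without a step past 1, HSPE1, the partner of HSP60, was at 341.93 and 627.0 FPKM at 2.5 and 5 µM (0.87), HSPA4 was at 42.06 and 55.09 FPKM, and HSF1 is given above.

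Heat shock genes carry binding sites for HSF1 made of inverted GAA units. The letters GAANNTTC (a palindrome, so the same on both strands) were searched in the 250 bases before each gene's start in RefSeq promoters (GRCh38.p14), which covered 9495 members (81.0%). They were found in 16 of 29 heat shock genes with an entry (55.2%), against 5.86% of all members with an entry and 7.05% of 27305 genes. The reverse order, TTCNNGAA, was found in 11 of the 29 (37.9%), against 7.04% of members. Among all higher genes, which include heat shock genes, GAANNTTC was held by 55 of 562 (9.79%), and among lower genes by 26 of 428 (6.07%). TTCNNGAA was held by 41 of the 562 (7.3%) and 32 of the 428 (7.48%), both near the share of members. A match describes the sequence and is not a measured binding site. The 30 bases around the match nearest the start are shown for the heat shock genes with the largest steps that hold one, read 5′ to 3′ on the gene's strand with matches in capitals.
HSPA6 (chr1:161524460-161524489, plus): gaaaggttcgcGAAAGTTCgcggcggcggg
HSPA1A (chr6:31815426-31815455, plus): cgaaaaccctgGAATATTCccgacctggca
HSPA1B (chr6:31827622-31827651, plus): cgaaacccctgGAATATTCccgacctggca
DNAJB1 (chr19:14518426-14518455, minus): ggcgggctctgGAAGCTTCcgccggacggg
HSPB8 (chr12:119178832-119178861, plus): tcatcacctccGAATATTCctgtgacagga
HSP90AA1 (chr14:102087109-102087138, minus): gggttcttccgGAAGGTTCgggaggcttct
The match begins 69 bases before the start in HSPA6, 106 in HSPA1A, 105 in HSPA1B and 47 in DNAJB1. The windows of HSPA1A and HSPA1B are nearly the same, and HSPA1L, which starts on the other strand beside HSPA1A, holds the same site 161 bases before its own start. HSPA1L was at 0.33, 0.53 and 10.33 FPKM, a step of 2.89, and overlapping transcripts there cannot be separated, since the use of strand is not given.

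Other folding and disposal machines had smaller steps. The 8 genes of TRiC, the ring that folds actin and tubulin, had a median step of 0.39, and only TCP1 passed 1, at 132.4, 110.93 and 416.66 FPKM. Of 34 proteasome genes 27 had a step above 0 (40.3% of all members did) and 0 passed 1, with a median of 0.37. The nearest was PSMC6, a base ATPase, at 36.8 FPKM at 2.5 µM and 74.54 at 5 µM, just under the limit. PSMD5, an assembly chaperone of the base, had the lowest step, at 26.26 and 16.81 FPKM.

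Targets of ATF4 split at the step. Their median first change was 0.68, the median step -0.40, and of 35 members 4 were higher and 9 lower at 5 µM than at 2.5 µM. The 4 higher ones act in transcription and signalling and deepened. ATF3 (chr1:212565334-212620777, plus strand) was at 6.48 FPKM in DMSO, 42.76 at 2.5 µM and 433.7 at 5 µM, a step of 3.31. DDIT3 (CHOP), a factor of prolonged stress, was at 18.7, 92.24 and 402.27 FPKM (2.11). PPP1R15A, which steers the phosphatase that restarts translation, was at 29.61, 51.04 and 285.3 FPKM (2.46), and SESN2, an inhibitor of mTORC1, was at 9.75, 24.33 and 98.06 FPKM (1.97). All 4 were higher at each dose.

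The 9 lower ones make or import amino acids, with the exceptions of PCK2, the hormone STC2 and the repressor JDP2. PCK2, mitochondrial PEP carboxykinase, was at 13.39 FPKM in DMSO, 42.59 at 2.5 µM and 10.98 at 5 µM, a step of -1.86. SLC6A9, a glycine transporter, was at 15.58, 32.27 and 8.78 FPKM (-1.77). PHGDH, the first enzyme of serine synthesis, was at 92.47, 147.79 and 56.97 FPKM (-1.36). Each was highest at 2.5 µM and below DMSO at 5 µM. SLC7A5, a carrier of large neutral amino acids, was at 273.46, 497.32 and 241.37 FPKM (-1.04). Of the 9, 6 reversed, and GPT2, SLC7A1 and CBS, which can share reads with its copy CBSL, had first changes under 0.5. ASNS, asparagine synthetase, did neither: it was at 82.27, 204.02 and 251.13 FPKM. ATF4 itself was at 264.75, 340.38 and 440.23 FPKM. Among 20 cytosolic tRNA synthetases the median step was -0.27, 0 were higher and WARS1 was lower by 1.13, at 91.2, 136.08 and 61.65 FPKM. A count of 1 in 20 is near the 4.75% of all members that were lower. ASNS and ATF4 are named here although their steps are small.

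Genes of the unfolded protein response in the endoplasmic reticulum had a median step of 0.25, with 4 of 27 higher and 0 lower. HERPUD1, which recruits degradation factors, was at 25.46, 47.13 and 265.69 FPKM, a step of 2.47. DNAJB9, a co-chaperone of BiP, was at 8.54, 11.77 and 40.94 FPKM (1.72), and HSPA5, BiP itself, at 393.64, 503.81 and 1345.33 FPKM (1.42). ERO1B, an oxidase, was low throughout, at 0.15 and 2.15 FPKM at 2.5 and 5 µM. At the other end SYVN1, a ubiquitin ligase of the same compartment, was at 22.1 and 11.13 FPKM (-0.93).

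A few autophagy genes had large steps while most had small ones. Of 35 autophagosome genes 4 were higher and 0 lower by 1, the 2 copies of LC3B, GABARAPL1 and ATG4A, and the median step was 0.28. GABARAPL1 (chr12:10212458-10223130, plus strand), an ATG8 protein that coats the autophagosome, was at 12.44 FPKM in DMSO, 34.34 at 2.5 µM and 175.05 at 5 µM, a step of 2.32. MAP1LC3B (LC3B) was at 31.3, 75.03 and 285.65 FPKM (1.91), and its near-identical copy MAP1LC3B2 at 2.5, 5.29 and 29.6 FPKM (2.28), so reads may be shared. These ATG8 genes deepened. ATG4A, a protease that trims ATG8 proteins, was at 14.88, 10.69 and 28.66 FPKM (1.34). The ATG8 relatives GABARAP and GABARAPL2 moved less, with 196.87 and 201.1 FPKM and 63.84 and 77.94 FPKM at 2.5 and 5 µM. VMP1, a membrane protein of early autophagosomes, had the lowest step, at 76.0 and 46.7 FPKM (-0.69).

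Among 15 cargo receptors SQSTM1 (p62) alone passed 1, at 120.57, 432.91 and 1087.44 FPKM, a step of 1.33 after a first change of 1.84. A count of 1 in 15 is near the 6.2% of all members that were higher. NCOA4, the ferritin receptor, was at 33.86 and 65.17 FPKM at 2.5 and 5 µM (0.92), and CCPG1, a receptor for the endoplasmic reticulum, at 17.03 and 11.45 FPKM (-0.53). The 43 lysosomal genes had a median step of -0.29, with 1 higher and 2 lower and 25 below 0, where 59.6% of all members were below 0. The count of 2 lower genes is near the 4.75% of all members that were lower. CTSS, a cysteine protease, was at 26.53, 24.11 and 8.19 FPKM (-1.45), and ASAH1, acid ceramidase, at 36.68, 37.58 and 13.49 FPKM (-1.41). CTSC, ATP6AP2, GAA and CTSD lay between -0.95 and -0.99. ATP6V1D, a subunit of the proton pump, was the higher one, at 32.73, 23.23 and 54.19 FPKM. Of 18 genes that restrain mTORC1, SESN2 was higher and DEPTOR, a subunit that inhibits the kinase, was lower, at 2.38, 3.96 and 1.3 FPKM. These counts of 1 in 18 are also near the shares over all members.

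**Figure D3:**
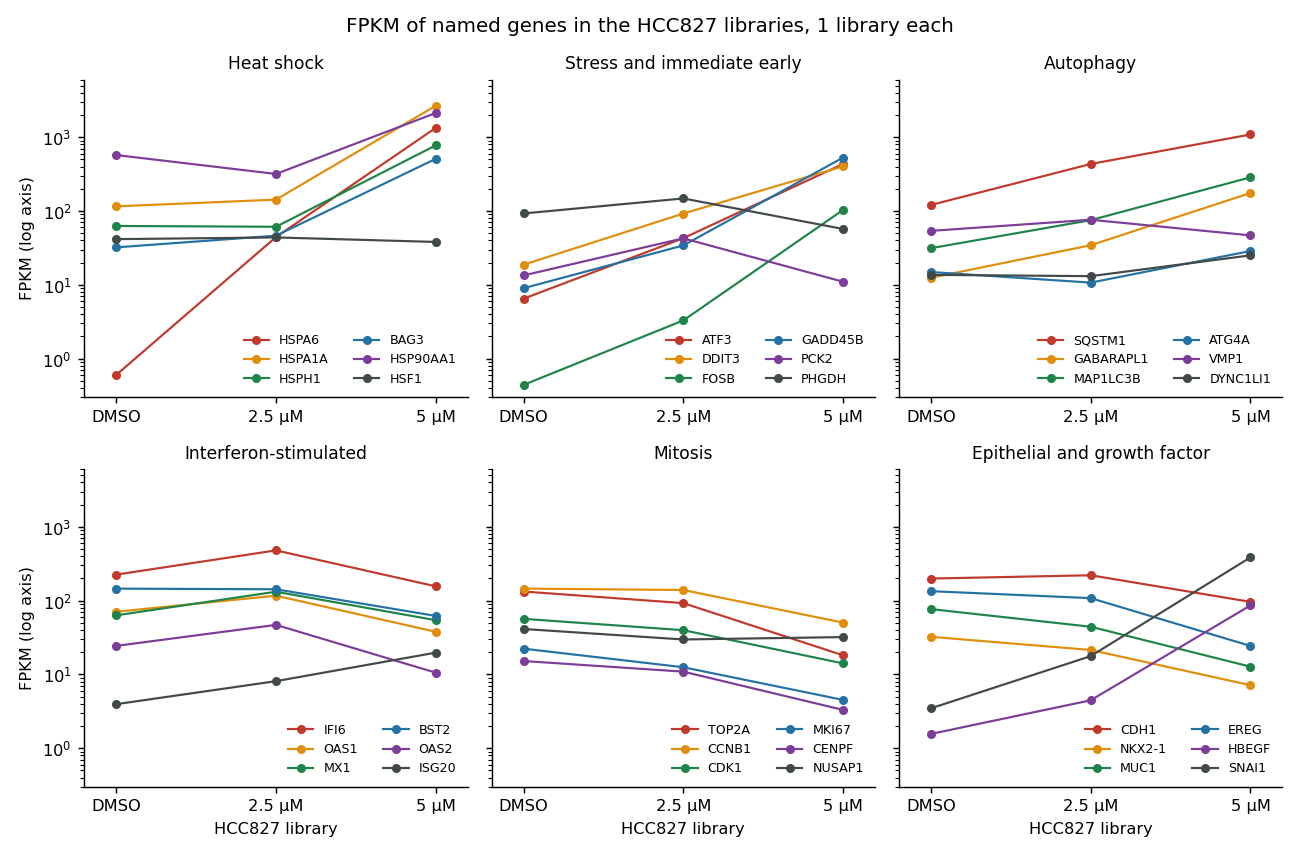
FPKM (log axis) of 36 named genes in the HCC827 libraries with DMSO, 2.5 µM and 5 µM 18E, grouped in 6 panels, 1 library per point. HSPA6, ATF3 and DDIT3 are higher at each dose, PCK2 and PHGDH peak at 2.5 µM, and the interferon-stimulated genes other than ISG20 are lowest at 5 µM.

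DYNC1LI1 (chr3:32525971-32570874, minus strand, up to 13 exons) had 13.62, 13.08 and 25.03 FPKM in HCC827 at the rising doses. Its first change was -0.05 and its step 0.89, under the limit of 1. In NCI-H1975 it was at 21.35, 26.54 and 29.43 FPKM, a step of 0.14. Of 21 dynein and dynactin genes 1 was higher and 0 lower, with a median of 0.15. This count is near the share over all members, of which 6.2% were higher and 4.75% lower. The higher one was NDEL1, which ties dynein to its activator LIS1, at 21.39, 24.43 and 74.67 FPKM (1.57). The paralogous chain DYNC1LI2 was at 52.74 and 37.2 FPKM at 2.5 and 5 µM, and the heavy chain DYNC1H1 at 18.72 and 10.81 FPKM (-0.74). Coat and Golgi genes had a median step of 0.29 and 0 of 27 past 1. Tubulins, the building blocks of the dynein track, had a median of 0.76 and 3 of 13 higher. Of the 13, 1 passed only through the 5 µM library. TUBB2A was at 7.28, 11.32 and 115.34 FPKM (3.24), its close copy TUBB2B at 0.4, 0.86 and 6.88 FPKM, and TUBB3 at 67.09, 77.23 and 190.48 FPKM, while TUBB, the major β-tubulin here, was at 480.64, 350.99 and 210.3 FPKM (-0.74).

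Immediate early genes followed the heat shock genes in size. Of 23 members 18 were higher and 0 lower, with a median step of 1.56 after a median first change of 0.63. Of the 23, 2 passed only through the 5 µM library. FOSB (chr19:45467995-45475179, plus strand), a subunit of the factor AP-1, was at 0.44 FPKM in DMSO, 3.29 at 2.5 µM and 103.35 at 5 µM, a step of 4.60. FOS was at 3.71, 6.53 and 98.28 FPKM (3.72), and JUN, its partner, at 36.03, 58.27 and 174.74 FPKM (1.57). The other JUN genes had no step: JUNB was at 68.63 and 72.01 FPKM and JUND at 48.01 and 51.27 FPKM at 2.5 and 5 µM. ARC, an activity-regulated gene better known in neurons, was at 0.16, 2.19 and 48.33 FPKM (3.95). MAFF, a small MAF factor, started at 5 µM, at 18.44, 21.55 and 180.89 FPKM (3.01). KLF zinc-finger factors had a median of 1.18 with 6 of 11 members higher (0.18 over all listed genes with no limit on low values), led by KLF4 at 11.55, 26.27 and 85.51 FPKM. Of the 11 KLF members, 2 passed only through the 5 µM library and so had to be higher there.

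Phosphatases that shut off MAP kinases were among the higher genes. In the MAPK feedback list 5 of 18 were higher and 1 lower. DUSP1, induced by stress, was at 3.96, 23.39 and 239.45 FPKM (3.30), and DUSP5, which acts on nuclear ERK, at 23.2, 38.28 and 194.62 FPKM (2.32). SPRY1, an inhibitor of receptor tyrosine kinase signalling, was the lower one, at 8.38, 5.57 and 2.12 FPKM. The TGACGTCA letters of the cAMP response element (a palindrome) were found before 3 of 17 immediate early genes with an entry (17.6%), 44 of 562 higher genes (7.83%), 12 of 428 lower genes (2.80%) and 3.57% of all members. TGANTCA, the AP-1 site, was found before 0 of the 17 immediate early genes, 59 higher genes (10.5%) and 25 lower genes (5.84%), against 6.09% of members.

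Of 10 ERBB receptor and ligand genes 4 were lower (ERBB2, ERBB3, EREG and BTC) and 1 higher, and the median step was -0.87. ERBB3 was at 25.36, 19.97 and 6.72 FPKM (-1.44) and ERBB2 at 45.23, 35.46 and 14.57 FPKM (-1.23). EGFR, the receptor this line depends on, was at 615.58, 595.06 and 351.99 FPKM, a step of -0.76. EREG, epiregulin, was at 134.24, 107.97 and 24.32 FPKM (-2.11), AREG, amphiregulin, at 180.29, 163.07 and 81.45 FPKM (-0.99), and BTC, betacellulin, at 8.12, 11.05 and 5.01 FPKM. HBEGF (chr5:140332843-140346631, minus strand), a stress-responsive ligand of EGFR and ERBB4, went the other way, at 1.56, 4.46 and 86.1 FPKM (4.00). MET, a kinase that can stand in for EGFR in this setting, was at 233.9, 173.99 and 72.95 FPKM (-1.24). EGFR and MET were picked for their known role.

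Genes of the p53-type stress list were higher in 9 of 21 cases and lower in 0, with a median step of 0.35. Leading them were the growth arrest genes GADD45B, at 8.98, 34.1 and 529.77 FPKM (3.92), and GADD45A, at 33.6, 55.51 and 358.73 FPKM (2.67). CDKN1A (p21), which blocks cyclin-dependent kinases, was at 7.05, 18.15 and 97.17 FPKM (2.36). These genes answer several stress factors besides p53. MDM2, a standard p53 target, was at 6.06 and 9.14 FPKM at 2.5 and 5 µM (0.52), and DDB2, a repair gene, at 6.2 and 4.24 FPKM (-0.46). In the BCL2 family the activators of cell death BBC3 (2.89, 6.2 and 26.15 FPKM), PMAIP1 (29.64, 38.95 and 100.99 FPKM) and BCL2L11 (10.56, 12.91 and 30.19 FPKM) were higher. BMF, another activator, was lower, at 8.89, 14.66 and 5.58 FPKM. The survival genes MCL1 and BCL2L1 had steps of 0.14 and 0.07. Of 17 death receptor and inhibitor genes, the decoy receptor TNFRSF10D was higher, at 8.41, 11.83 and 47.29 FPKM, and TNFRSF21 was lower, at 62.73, 68.47 and 31.16 FPKM. A count of 1 in 17 each way is near the shares over all members, 6.2% higher and 4.75% lower.

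Of 40 genes of G2 and mitosis 17 were lower and 0 higher by at least 1. The median step was -0.86 after a first change of -0.30, and all 40 were below their DMSO level at 5 µM. TOP2A (chr17:40388516-40417950, minus strand), which untangles chromosomes, was at 132.77 FPKM in DMSO, 92.43 at 2.5 µM and 18.13 at 5 µM, a step of -2.29. CDK1, the mitotic kinase, was at 56.58, 39.74 and 14.09 FPKM (-1.43), and its partner CCNB1 at 145.54, 139.14 and 50.28 FPKM (-1.45). CENPF, a kinetochore protein, was at 15.18, 10.9 and 3.3 FPKM (-1.47). All 4 were lowest at 5 µM. NUSAP1 and CDC25C had steps near 0, at 29.73 and 32.04 FPKM and at 9.24 and 9.35 FPKM. DNA replication genes had a median of -0.50 with 2 of 36 lower, GINS1 (23.37, 17.74 and 6.81 FPKM) and UHRF1 (39.42, 38.56 and 16.22 FPKM). That count is near the 4.75% of all members that were lower. Of 14 cyclin D, cyclin E and CDK inhibitor genes 4 were higher and 0 lower, with a median step of 0.22. The cyclin E genes were among the 4, CCNE2 at 11.26, 5.25 and 24.04 FPKM and CCNE1 at 8.53, 9.16 and 24.33 FPKM, beside the inhibitors CDKN1A and CDKN2D. CCND1, cyclin D1, was at 160.46 and 98.37 FPKM at 2.5 and 5 µM (-0.70).

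Promoters of many mitotic genes carry a CHR element, TTTGAA, through which they are held down outside G2 and mitosis. TTTGAA or its reverse complement TTCAAA was found before 19 of 33 G2 and mitosis genes with an entry (57.6%), against 12.1% of members with an entry and 16.1% of all genes in the table. CCAAT, or ATTGG, was found before 29 of the 33 (87.9%), against 42.2% of members. Among all lower genes, which include G2 and mitosis genes, TTTGAA was held by 76 of 428 (17.8%), and among higher genes by 65 of 562 (11.6%). CCAAT was held by 176 of the 428 (41.1%), near the share of members, and by 264 of the 562 (47.0%). The windows of 4 genes with large negative steps and the 150 bases before the start of MKI67, which hold a pair of matches, show the element, with matches in capitals and the gene's strand read 5′ to 3′.
TOP2A (chr17:40418030-40418059, minus): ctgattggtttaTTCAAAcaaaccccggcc
CDK1 (chr10:60778453-60778482, plus): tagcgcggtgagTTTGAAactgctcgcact
ASPM (chr1:197146765-197146794, minus): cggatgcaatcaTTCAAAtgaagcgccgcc
KIF4A (chrX:70290058-70290087, plus): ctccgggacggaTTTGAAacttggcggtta
MKI67 (chr10:128126424-128126573, minus): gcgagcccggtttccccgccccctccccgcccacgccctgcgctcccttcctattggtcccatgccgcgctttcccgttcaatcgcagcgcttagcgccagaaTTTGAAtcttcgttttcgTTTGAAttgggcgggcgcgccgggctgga
In MKI67, which encodes the proliferation marker Ki-67, the matches begin 47 and 29 bases before the start. MKI67 was at 22.32, 12.5 and 4.51 FPKM, a step of -1.29. ASPM, a spindle pole protein, was at 7.43, 6.35 and 1.85 FPKM (-1.37), and KIF4A, a chromosome motor, at 35.91, 32.41 and 13.26 FPKM (-1.23).

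Interferon-stimulated genes had first changes and steps of opposite sign at the median. Their median first change was 0.55, with 36 of 40 above 0, and their median step was -1.03, with 24 lower and 1 higher. Of the 24, 13 reversed and 11 had first changes under 0.5, and at 5 µM 32 of the 40 were below DMSO. IFI6, an antiviral membrane protein, was at 224.93 FPKM in DMSO, 479.18 at 2.5 µM and 156.04 at 5 µM, a step of -1.61. OAS2, which makes the messenger that activates RNase L, was at 24.34, 46.87 and 10.55 FPKM (-2.05), and OAS1 at 70.6, 116.6 and 37.78 FPKM (-1.60). All of these peaked at 2.5 µM. BST2, tetherin, and IFITM1 were lower at 5 µM with first changes of -0.03 and -0.29, at 145.24, 142.39 and 62.01 FPKM and at 10.42, 8.36 and 2.93 FPKM. ISG20, an exonuclease, was the exception, at 3.95, 8.1 and 19.72 FPKM (1.19).

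Among antigen presentation genes of MHC class I 3 of 15 were lower and 0 higher, with a median step of -0.69. ERAP1, which trims peptides, was at 21.64, 24.46 and 7.23 FPKM (-1.63), TAPBP, tapasin, at 54.22, 63.4 and 24.58 FPKM (-1.33), and the immunoproteasome subunit PSMB10 at 72.83, 84.77 and 41.22 FPKM (-1.02). HLA-E was at 89.76 and 100.92 FPKM at 2.5 and 5 µM. The NF-kB and chemokine list was mixed, with 5 of 28 higher and 2 lower. IL6 was at 1.11, 2.61 and 38.64 FPKM (3.46), and IL1A at 6.1, 6.92 and 27.15 FPKM (1.83). CXCL8 was at 39.39, 11.53 and 42.22 FPKM, lowest at 2.5 µM and near its DMSO level at 5 µM. RELB, an NF-kB subunit, was at 3.85, 4.29 and 15.05 FPKM, and TNFAIP3 (A20), a feedback inhibitor, at 2.37, 2.11 and 7.42 FPKM. CXCL5, a neutrophil chemokine, was lower at each dose, at 338.06, 224.32 and 88.95 FPKM (-1.32), and TNFAIP2 started, at 145.81, 137.54 and 39.41 FPKM (-1.78).

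Among epithelial and lung lineage genes 6 of 22 were lower and 0 higher, with a median step of -0.69. NKX2-1, the lung lineage factor, was at 32.33 FPKM in DMSO, 21.43 at 2.5 µM and 7.14 at 5 µM (-1.46), and MUC1, an apical mucin, at 76.7, 44.25 and 12.72 FPKM (-1.72). Both deepened. CDH1, E-cadherin, started, at 198.89, 220.47 and 96.13 FPKM (-1.19), and CLDN7, a tight junction protein, reversed, at 249.94, 451.69 and 198.27 FPKM (-1.18). SNAI1 (chr20:49982999-49988886, plus strand), a repressor of CDH1, was at 3.47, 17.69 and 385.55 FPKM, a step of 4.37. The 8 mesenchymal genes had a median step of 0.57 (0.04 over all listed genes with no limit on low values), with 2 higher, SNAI1 among them, and 1 lower by at least 1. Of the 8, 1 passed only through the 5 µM library. VIM, vimentin, was at 2.73, 13.82 and 26.53 FPKM (0.89), and FN1, fibronectin, was lower, at 38.73, 28.34 and 10.2 FPKM (-1.39).

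Squamous and barrier genes went both ways. KRT16, an activation keratin, was at 329.82, 217.83 and 52.16 FPKM (-2.04), KRT14 at 56.97, 37.06 and 10.73 FPKM (-1.70) and S100A7, psoriasin, at 19.13, 8.45 and 1.51 FPKM (-1.91), all lower at each dose. TP63, the squamous lineage factor, was higher, at 1.43, 1.32 and 7.89 FPKM (1.94), as was the cornified envelope gene SPRR2D, at 1.58, 4.43 and 12.43 FPKM. In this list 6 of 19 were higher and 3 lower, and 3 passed only through the 5 µM library. The median was 0.48, and -0.04 over the genes of at least 5 FPKM. Integrins and laminins, which anchor the cell to its basement membrane, had a median of -0.72 with 6 of 16 lower and 0 higher. ITGB6 was at 27.88, 33.83 and 8.66 FPKM (-1.85), LAMA5 at 68.01, 48.16 and 13.35 FPKM (-1.78), and ITGB1, the common β chain, at 677.3, 492.69 and 219.04 FPKM (-1.17). LAMB3, a chain of laminin-332, was nearest to the limit upward, at 90.59, 145.33 and 280.78 FPKM (0.95).

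Fatty acid synthesis genes had a median step of -0.64 with 4 of 13 lower and 0 higher. SCD, which makes monounsaturated fatty acids, was at 165.13, 130.03 and 30.71 FPKM (-2.05), ACACA, acetyl-CoA carboxylase, at 27.17, 23.73 and 9.75 FPKM (-1.20), and SREBF1, their regulator, at 65.36, 68.73 and 28.24 FPKM (-1.25). Of 24 cholesterol genes 3 were higher and 1 lower, with a median of -0.21 and 16 below 0 (59.6% of all members were). HMGCS1, an early enzyme of the pathway, was at 33.07, 22.81 and 105.36 FPKM (2.16), IDI1, an isomerase, at 8.69, 8.13 and 27.12 FPKM (1.62), and INSIG1, a sterol sensor, at 32.97 and 68.73 FPKM at 2.5 and 5 µM.

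NRF2 targets had a median step of -0.06, whose sign differed between scalings, with 3 of 23 higher and 2 lower. OSGIN1, an oxidative stress gene, was at 5.92, 15.02 and 82.03 FPKM (2.37), and GCLM, of glutathione synthesis, at 24.09, 24.11 and 55.13 FPKM (1.16), while the exporter ABCC3 was at 73.05, 61.5 and 21.41 FPKM (-1.48). HMOX1, haem oxygenase, had its change before the step, at 2.77, 46.88 and 62.03 FPKM. Metallothionein MT1X was at 21.17, 29.26 and 142.92 FPKM (2.25). ADM, adrenomedullin, a hypoxia-responsive peptide, was at 25.6, 35.61 and 292.05 FPKM (3.00), but the 26 glycolysis and hypoxia genes had a median of -0.24, and LDHA, lactate dehydrogenase, was at 1279.08, 809.03 and 466.0 FPKM (-0.79). Respiratory chain (36), mitochondrial ribosome (33) and cytosolic ribosome genes (48) had 0 members past 1 in either direction and medians of -0.17, -0.13 and 0.03. The sign of the last, and that of ribosome biogenesis (-0.02), differed between scalings.

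**Figure D4:**
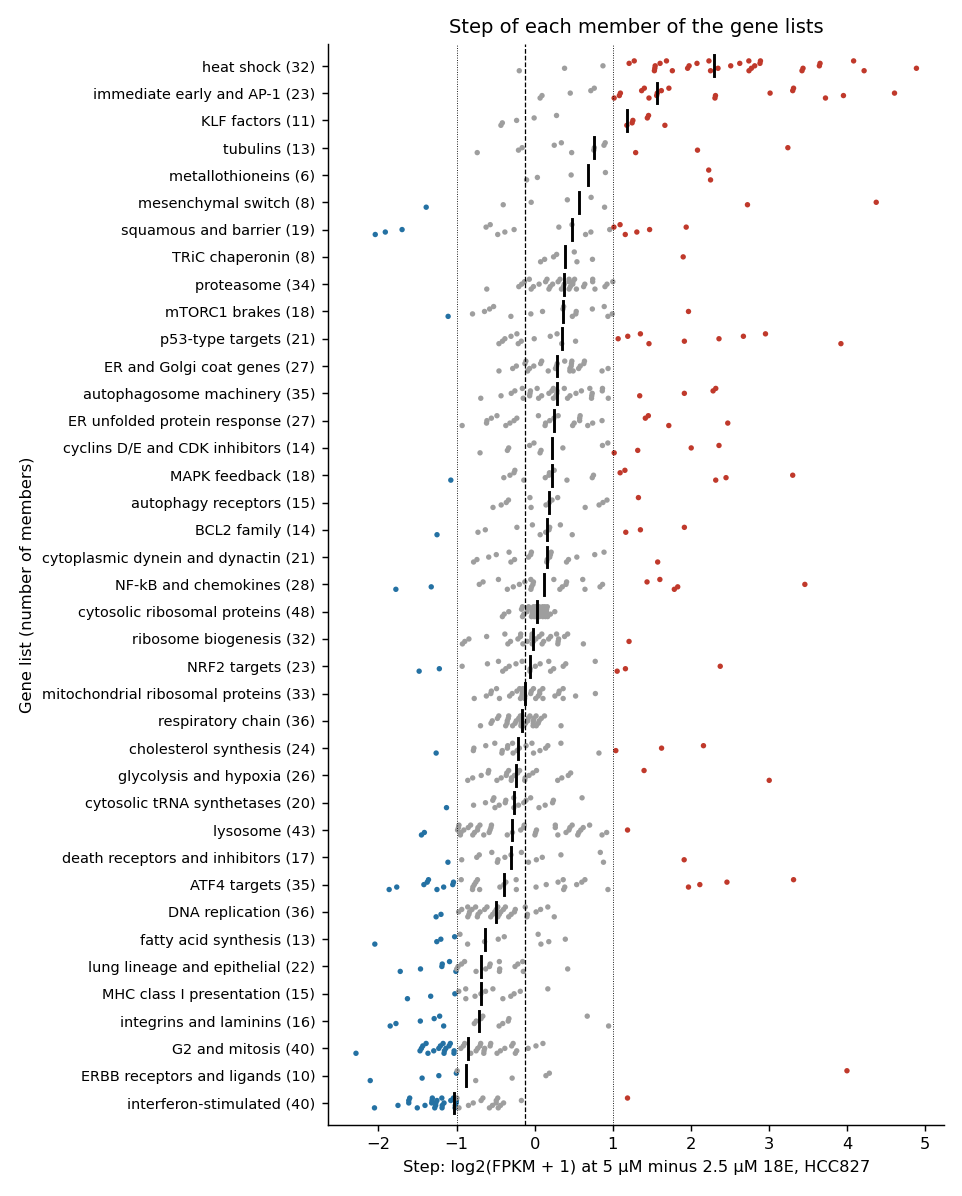
Step of every member of 39 gene lists in HCC827 (x axis, log2(FPKM + 1) at 5 µM minus 2.5 µM), ordered by the list median (black bars), with the number of members in brackets; red points are higher and blue points lower by at least 1, and the dashed line is the median of all members, -0.13. Heat shock genes have the highest median, 2.30, and interferon-stimulated genes the lowest, -1.03.

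Several of the largest steps lay outside the lists. RASD1 (chr17:17494437-17496395, minus strand), a small G protein known as dexamethasone-induced, had the largest step of all, at 0.19 FPKM in DMSO, 5.61 at 2.5 µM and 205.1 at 5 µM (4.96). IL31, a cytokine known from T cells, was at 0.0, 0.57 and 25.75 FPKM (4.09). With a pseudocount of 0.1 the step of IL31 was 5.27 and larger than that of RASD1, so the first rank depends on the pseudocount. PTHLH, parathyroid hormone-related protein, reversed, at 3.0, 1.43 and 14.97 FPKM (2.72). Among lower genes APOL1 (chr22:36253010-36267530, plus strand), a secreted lytic factor, was at 354.67, 504.25 and 86.51 FPKM, the lowest step of all (-2.53). AZGP1, a secreted zinc-binding glycoprotein, was at 196.42, 303.99 and 57.92 FPKM (-2.37), and ASS1, argininosuccinate synthase, at 44.9, 90.1 and 20.27 FPKM (-2.10). Each of these peaked at 2.5 µM. S100P, a calcium-binding protein, returned close to DMSO, at 5.79, 25.93 and 5.35 FPKM (-2.08). NRP1, a co-receptor for VEGF, was at 56.77, 49.0 and 11.11 FPKM (-2.05), and SMAD6, an inhibitor of BMP signalling, at 11.69, 10.39 and 1.93 FPKM (-1.96), both with little first change. The mucin MUC5B was lower at each dose, at 136.17, 26.76 and 7.35 FPKM.

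The same step was far smaller in NCI-H1975, which shares no library with HCC827. Over the same 11715 genes 60 (0.512%) were higher and 4 (0.0341%) lower by at least 1, and the SD across genes was 0.26 against 0.68. Of the 726 genes higher in HCC827, 49 (6.75%) were also higher by 1 in NCI-H1975 and 592 (81.5%) had a step above 0 there. Over all members 36.9% were above 0 there and 62.1% below. Of the 556 lower genes 0 were lower by 1 and 425 (76.4%) were below 0. The median NCI-H1975 step was 0.21 for the higher and -0.18 for the lower genes, against -0.06 for all. Across genes, which are not independent and share both libraries of a line, Pearson's r was 0.48 and Spearman's rho 0.41. Genes past 1 in opposite directions were H4C12 and LOC105371063, higher in HCC827, and URGCP-MRPS24, lower there. H4C12, a histone gene, was listed at 0 in 1 of the HCC827 and 2 of the NCI-H1975 libraries.

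HSPA6 had a step as large in NCI-H1975, from 2.07 to 104.12 FPKM (5.10), and DNAJB9 and HSPA5 had steps of 1.62 and 1.47 there. For most heat shock genes the NCI-H1975 step was smaller: the list median was 0.47, 7 of 32 passed 1, and HSP90AA1 was at 1004.64 and 1275.55 FPKM. G2 and mitosis genes had a median of -0.33 there, with 2 of 40 above 0. The unfolded protein response list had nearly the same median in both lines, 0.25 and 0.26. Interferon-stimulated genes had opposite medians, -1.03 and 0.11, and 27 of the 40 were below 0 in HCC827 and above 0 in NCI-H1975. None of these differences between lines could be tested with 1 library a side.

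**Figure D5:**
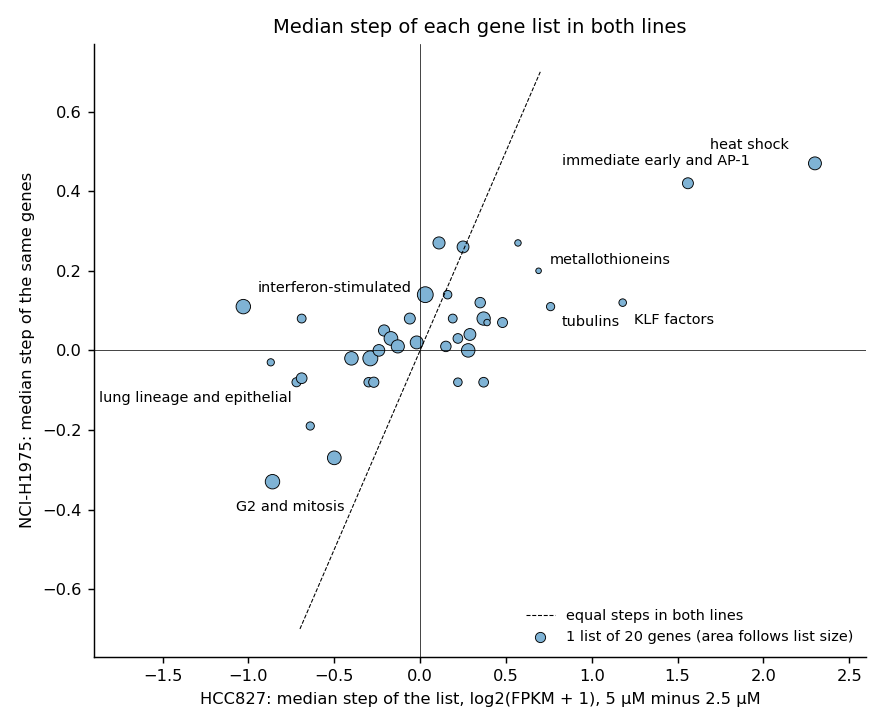
Median step of each of 39 gene lists in HCC827 (x axis) and of the same genes in NCI-H1975 (y axis), in log2(FPKM + 1) at 5 µM minus 2.5 µM; circle area follows the number of genes and the dashed line marks equal steps. Heat shock genes are at 2.30 and 0.47, and interferon-stimulated genes are at -1.03 and 0.11.

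Higher and lower genes differed in gene structure, which the rule did not use. In GENCODE 29 (GRCh38), which held 97.5% of the members, the median span from start to end was 18588 bases for higher genes, 36584 for lower genes and 31392 for all members. The 147 genes higher by at least 2 had a median span of 8910 bases. The median of the largest exon number of a gene was 6 for higher, 11 for lower and 9 for all members. Genes of at most 2 exons were 9.05% of the higher genes, 14.9% of those higher by 2 and 4.32% of all. Genes over 100 kb were 7.76% of the higher and 21.3% of the lower genes, against 17.9% of all. RASD1 (2 exons) and HSPA6 (1 exon) are short with few exons. TOP2A has many exons, up to 35, but its span is below the median of all members. These are descriptions across genes, which are not replicates, and no test was made.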

How the data were processed

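RNA sequencing of total RNA from 2 cell lines was analysed in the 6 libraries of the 18E experiment. The authors deposited FPKM values with 2 decimals, per the file headers, which name the unit in the column names alone. Tools and builds per the submitters' processing notes are Bowtie 0.12.2, mm8 (mouse) and GRCh38.p12, with no word on what each was used for. Quantifier, annotation and strand setting: not given in the sources used here. Columns were matched to samples by name.

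The table had 16800 lines, and 40 with spilled text or missing values were left out. Values were transformed to log2(FPKM + 1), so differences understate those of low genes. FPKM hide depth, so no counting interval could be given, and a value of 0 is reported as listed at 0. Genes were counted past limits of 1 (step) and 0.5 (first change). The members and all gene lists were chosen with earlier results of these data known. Named genes were, among members of at least 5 FPKM in the higher library, the 12 largest steps per direction, the 6 largest per class and direction, and up to 4 per list, with DYNC1LI1. Others were named after their values were seen. Coordinates are from GENCODE 29 and sequences from RefSeq (GRCh38.p14). Alternatives were a pseudocount of 0.1, equal totals, quantile normalization, median centring, no filter, a minimum of 5 FPKM and other class limits. Python 3.11.15, pandas 2.3.3, numpy 2.4.6 and matplotlib 3.10.9 were used. The siRNA table was not used here. A few genes of the lists are not reported here.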

Additional observations from a re-analysis of the deposited data

Results flagged for a closer look

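Results are listed here because the step went one way in HCC827 and the other way in NCI-H1975. They are not the full set of such results. Among others, the 15 MHC class I genes had medians of -0.69 in HCC827 and 0.08 in NCI-H1975. APOL1 had steps of -2.53 and 0.09, and AZGP1 of -2.37 and 0.36. With 1 library a side the differences between the lines were not tested. The median step of the 40 interferon-stimulated genes was -1.03 in HCC827 and 0.11 in NCI-H1975. That of the 8 lung epithelial markers was -0.76 in HCC827 and 0.14 in NCI-H1975. All 8 markers were below 0 in HCC827, and 5 of them were above 0 in NCI-H1975. The wider list of 22 epithelial and lung lineage genes had medians of the same sign, -0.69 in HCC827 and -0.07 in NCI-H1975. KRT16, an activation keratin, had a step of -2.04 in HCC827, where it was at 217.83 and 52.16 FPKM, and of 0.84 in NCI-H1975, where it was at 1.8 and 4.02 FPKM. S100P, a calcium-binding protein, had -2.08 in HCC827 (25.93 and 5.35 FPKM) and 0.76 in NCI-H1975 (2.91 and 5.63 FPKM). No group had the 4 libraries needed to look for a library apart from the others.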

How the results depend on the processing

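No paired analysis was possible because each group held 1 library and the groups share only replicate number 1, and leaving out a library would leave nothing to compare. With the threshold of the step at 2, 147 genes were higher and 14 lower. With a pseudocount of 0.1, 938 genes were lower, starting lower genes numbered 684, deepening genes 333 higher and 104 lower, and reversing genes 69 higher and 150 lower. With a first-change limit of 0.25, starting genes were 349 higher and 257 lower, deepening genes 318 and 143, and reversing genes 59 and 156. With a limit of 1, deepening genes were 59 and 3, and reversing genes 5 and 19. Equal totals gave 67 deepening lower genes. The cause of these differences was not tested beyond the limits themselves. The other alternatives left 32 class counts and 11 gene counts within 1.5 times the reported ones. No called value changed sign. For the list medians, taken once per list and alternative, 237 values were like the reported ones and 3 moved. With no filter on low values KLF factors had 0.18 and mesenchymal genes 0.04, and at 5 FPKM squamous genes had -0.04. Some medians near 0 changed sign and still count as like the reported ones. NRF2 targets had 0.03 with median centring, and NF-kB and chemokine genes had 0.11 as reported and -0.02 at 5 FPKM. Single steps, taken once per named gene and alternative, moved in 12 genes, all with a pseudocount of 0.1 and all to larger sizes. The other 1092 values were like the reported ones. Depth is unknown, so low genes (under 1 FPKM in a library) are the least certain.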

Other observations

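Genes of the cleavage-stage embryo, many of them known targets of the factor DUX4, were a group outside the lists with large steps. This list of 36 genes was put together after the values were seen, so its counts are no support for anything. Of 30 in the table all had a step above 0, 20 were members and 16 were higher by at least 1. In HCC827 they summed to 3.82, 18.03 and 370.59 FPKM in the DMSO, 2.5 µM and 5 µM libraries, and in NCI-H1975 to 9.59 and 28.86 FPKM at 2.5 and 5 µM. RFPL4A, a RING-finger gene, was at 0.23, 5.68 and 173.71 FPKM, and its copy RFPL4AL1 at 0.0, 0.65 and 27.51 FPKM. FRG2B was at 0.0, 1.14 and 44.8 FPKM, FRG2 at 0.12, 0.81 and 32.36 FPKM and FRG2C at 0.21, 0.57 and 19.61 FPKM. These belong to families of near-identical copies, among which reads may be shared. CCNA1, the germline cyclin A, was at 0.0, 1.68 and 7.47 FPKM. DUX4 was at 0.06, 0.24 and 1.4 FPKM, and ZSCAN4 at 0.02, 0.0 and 0.53 FPKM. Levels were low in most of the group.

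In all, 165 genes, 12 of them in this list, were under 0.5 FPKM with DMSO and at 2.5 µM and reached 1 FPKM at 5 µM, against 41 with the opposite pattern. Among them TNF, the cytokine, was at 0.0, 0.12 and 7.04 FPKM, and RGS16, a regulator of G protein signalling, at 0.06, 0.43 and 11.19 FPKM. The number of genes listed at 0 was also lowest at 5 µM (534), and its part in this was not tested. Of 412 ZNF zinc-finger members 33 were higher and 2 lower by at least 1, 244 had a step above 0 (40.3% of all members did), and the median was 0.11 against -0.13 over all members.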
